A study of Ipomoea batatas with 12 samples.

Results

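In sweet potato leaves, 134 genes lay above the water level after 1 h with the peptide IbHypSysIV and below it after 1 h with the peptide IbPep1. They were chosen from the read counts of all 12 libraries by a rule on these same values. Counts were scaled to CPM, the counts of a gene relative to the library total, and taken as log2(CPM + 0.5). A member had a mean water level of at least 1 CPM, a mean IbHypSysIV level at least 0.5 log2 units above water, a mean IbPep1 level at least 0.5 below water, and no overlap between the 4 IbHypSysIV and the 4 IbPep1 libraries. The 134 were 0.415% of the 32301 identifiers in the table and 0.652% of the 20558 with a mean water level of at least 1 CPM. Because every library and all 3 comparisons entered the rule, the shifts below are a description of the members. Calls from a fit of the same libraries are given further down, also as a description that supports nothing.

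IbHypSysIV belongs by name to the hydroxyproline-rich systemins, small glycopeptides cut from larger precursors that are known in the nightshade family and in sweet potato. IbPep1 belongs by name to the plant elicitor peptides, which are cut from precursors on damage and, in Arabidopsis, are perceived by leucine-rich repeat receptor kinases at the cell surface. Members of both families are known to switch on defence genes in leaves, with jasmonate and ethylene among the signals that follow. The series' title concerns a receptor for a damage-associated molecular pattern, a molecule by which a plant senses its own injury, and the peptide that it binds.

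All libraries came from the third leaf of cultivar Tainong 57, from scions grown for 3 weeks with 16 h of light, and leaves were treated for 1 h with water, IbHypSysIV or IbPep1, with 4 libraries in each group. The labels name no transgene and no mutant and do not say whether replicates came from separate plants, so the spread between libraries may be partly technical. For IbPep1 the source name reads the same in all 4 libraries, while a separate treatment field counts from IbPep1 up to IbPep4, and the group was taken from the source name. Total counts ran from 16607188 to 25073251 a library, and 3 counts, the floor used here for counting error only, correspond to 0.120 to 0.181 CPM. No member was at 0 in any library, and 1 member had under 3 counts in some library. The table gives identifiers without names or descriptions, and 0 of them matched the sweet potato reference gene table that was searched. The members' functions, the gene lists that need product descriptions, the leaf markers and the sequences are therefore not described, near-identical copies that share reads could not be recognised, and 4 identifiers are printed.

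Water replicate 3 stood apart from its group. Over the 20558 genes, water replicate 3 correlated with the other water libraries at a mean of 0.938, against at least 0.966 for each of those, and with the IbPep1 libraries at a mean of 0.957. IbHypSysIV replicate 4 and IbPep1 replicate 3 had the lowest mean correlation of their groups, at 0.956 against 0.962 to 0.973 for the other IbHypSysIV libraries and 0.958 against 0.970 to 0.974 for the other IbPep1 libraries. IbHypSysIV replicate 4 was thus only a little below IbHypSysIV replicate 2. These 3 are called the least alike libraries, and results that rest on them are given with and without them.

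As a group, the members took a small share of the counts that differed between treatments in every library. Their summed level was 6129, 6765, 5363 and 6758 CPM in water replicates 1 to 4. With IbHypSysIV it was 14437, 11685, 12300 and 10621 CPM in replicates 1 to 4, and with IbPep1 it was 2795, 2423, 3453 and 2848 CPM. The 3 groups did not overlap in this sum. The rule bars overlap between the peptides gene by gene and sets only means against water, and the sum rests on the values that chose the members. The mean was 6254 ± 664 CPM in water, 12261 ± 1608 CPM with IbHypSysIV and 2880 ± 426 CPM with IbPep1 (SD, n = 4), or 0.625%, 1.23% and 0.288% of all counts. In ratios of these means, IbHypSysIV stood 1.96-fold above water and water 2.17-fold above IbPep1.

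**Figure D1:**
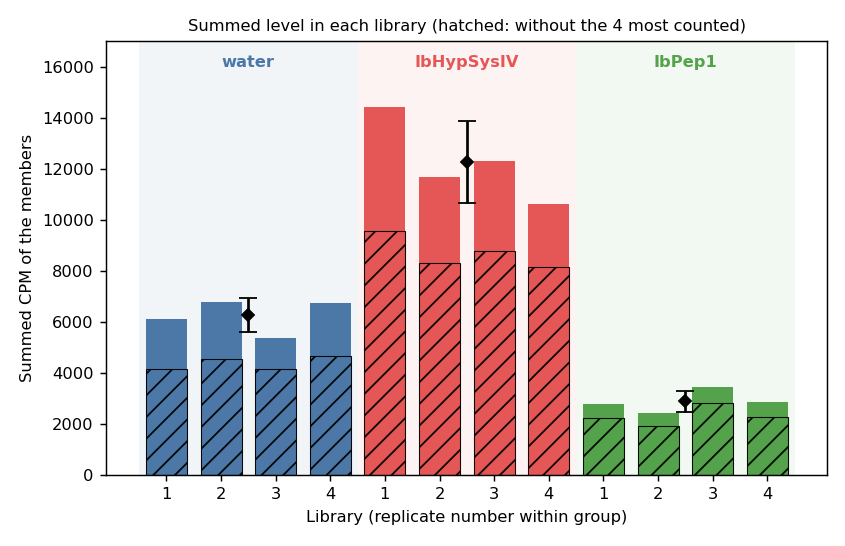
Summed CPM of the 134 members in each of the 12 libraries, with the hatched part of each bar leaving out the 4 most counted members. Diamonds and error bars give the group mean and SD of the whole bars (n = 4); the IbHypSysIV bars reach 10621 to 14437 CPM, the water bars 5363 to 6765 CPM and the IbPep1 bars 2423 to 3453 CPM.

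Few members carried most of these reads. The most counted member held 10.9% of the summed level over the 12 libraries, the 4 most counted held 28.1%, and 11 members held 50%. CPM is not scaled to gene length, which the table does not give, so this order is one of reads and not of transcripts. Without the 4 most counted members the sums were 4380 ± 264 CPM in water, 8697 ± 641 CPM with IbHypSysIV and 2313 ± 375 CPM with IbPep1 (SD, n = 4), again without overlap. Of the 134 members, 31 had a mean water level under 5 CPM, 70 lay at 5 to 50 CPM and 33 at 50 CPM or more. Their median water level was 13.6 CPM, against 16.6 CPM over the 20558 genes.

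The shifts that chose the members were mostly moderate. With IbHypSysIV the median shift against water was 0.77 log2 units, with quartiles at 0.62 and 1.03 and the largest at 5.24. With IbPep1 the median was -0.82, with quartiles at -1.14 and -0.63 and the largest at -2.39. Over the 20558 genes the same medians were -0.03 and -0.004. The IbHypSysIV shift was the larger in size in 63 members and the IbPep1 shift in 71. In the library medians, water lay near the middle. On a scale with the members' IbPep1 mean at 0 and their IbHypSysIV mean at 1, water replicates 1, 2 and 4 lay at 0.510, 0.542 and 0.589 and water replicate 3 at 0.336.

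**Figure D2:**
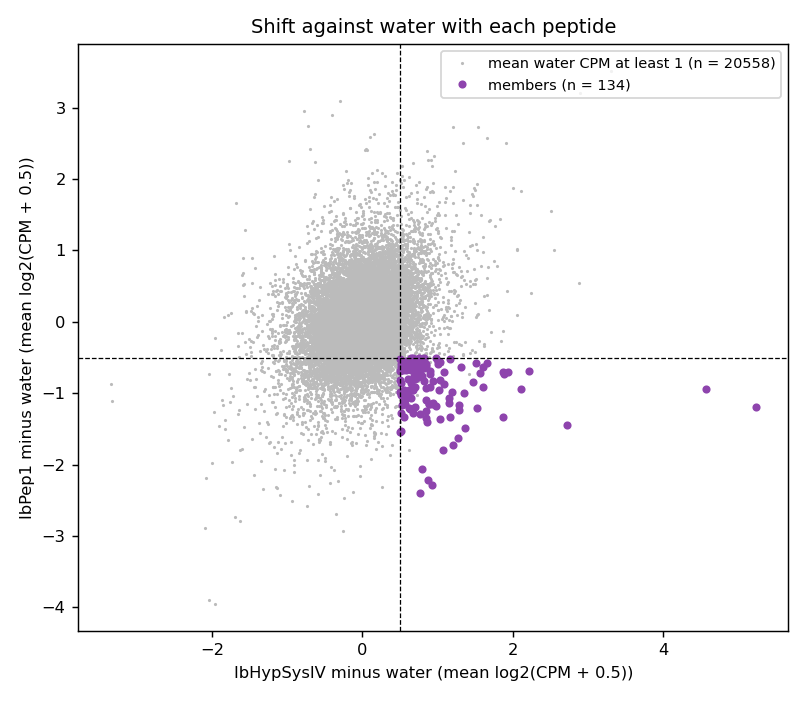
Mean shift against water, in log2(CPM + 0.5), with IbHypSysIV (x axis) and with IbPep1 (y axis) for the 20558 genes with a mean water level of at least 1 CPM (grey) and the 134 members (purple). Dashed lines mark the thresholds of 0.5 and -0.5, and grey points beyond both lines are genes left out because the peptide libraries overlapped; the member furthest to the right is at 5.24 and the lowest at -2.39.

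Members divided into 4 kinds by the size of the shifts. In 15 members both shifts were at least 1 log2 unit, in 23 only the IbHypSysIV shift was, in 28 only the IbPep1 shift was, and in 68 neither was. The 15 strongest 2-way members summed to 1322 ± 57.8 CPM in water, 3198 ± 922 CPM with IbHypSysIV and 434 ± 64.4 CPM with IbPep1 (SD, n = 4). In the 23 the median shifts were 1.47 and -0.70, and in the 28 they were 0.74 and -1.21. No member reached 2 log2 units with both peptides. A shift of at least 2 was found in 5 members with IbHypSysIV and in 4 other members with IbPep1.

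Many members lay close to the thresholds. The IbHypSysIV shift, the IbPep1 shift or both were within 0.1 log2 units of 0.5 in 51 members. The smallest IbHypSysIV shift inside the rule was 0.501 and the largest outside, in a gene that met every other condition, was 0.499. For IbPep1 the corresponding values were -0.504 inside and -0.495 outside. The lowest mean water level inside was 1.03 CPM and the highest outside was 0.896 CPM. The smallest gap between the lowest IbHypSysIV and the highest IbPep1 library was 0.0442 log2 units inside, and the gap nearest to it outside was -0.0203, an overlap. Dropping the condition on overlap gave 153 genes.

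Set beside the other arrangements of direction, the pattern was one of the smaller ones. The same rule with the peptides exchanged found 143 genes. By the shift of 0.5 alone, with no condition on overlap, 592 genes were above water with both peptides, 591 were below with both, and 171 were below with IbHypSysIV and above with IbPep1, beside the 153. All 4 counts use the same water libraries for both peptides, so they were not compared by a test. The 134 members were 8.51% of the 1575 genes with an IbHypSysIV shift of at least 0.5 and 5.07% of the 2644 with an IbPep1 shift of at most -0.5.

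The 2 members with the largest IbHypSysIV shifts were itf05g06830 and itf05g06850, whose identifiers differ by 20 in their last part. The level of itf05g06830 was 2.43, 8.30, 0.478 and 7.88 CPM in water replicates 1 to 4. It was 152, 181, 197 and 77.9 CPM with IbHypSysIV and 1.73, 0.302, 2.55 and 0.902 CPM with IbPep1. Every IbHypSysIV library stood far above all others, while water replicates 1 and 3 lay within the IbPep1 range. Its mean levels were 4.77 ± 3.92, 152 ± 52.8 and 1.37 ± 0.980 CPM (SD, n = 4) in water, IbHypSysIV and IbPep1. The fitted log2 fold change (edgeR) was 5.03 (SE 0.73) for IbHypSysIV and -1.83 (SE 0.73) for IbPep1, both against water. At an adjusted p under 0.05 in edgeR's quasi-likelihood test over all genes, the gene was called higher with IbHypSysIV and was not called lower with IbPep1. All named members were picked for their shifts in these same libraries, so their calls here and below are a description and support nothing.

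The level of itf05g06850 was 23.6, 68.6, 1.74 and 45.3 CPM in water, with replicate 3 below every IbPep1 library. It was 512, 634, 685 and 249 CPM with IbHypSysIV and 13.2, 6.60, 11.4 and 10.2 CPM with IbPep1. In both genes IbHypSysIV replicate 4 was the lowest of its group and still above every library of the other groups. The mean levels of itf05g06850 were 34.8 ± 28.7, 520 ± 195 and 10.4 ± 2.81 CPM (SD, n = 4), which set IbHypSysIV 14.9-fold above water and water 3.36-fold above IbPep1. Its IbPep1 shift of -0.95 on the log2(CPM + 0.5) scale was -2.01 without water replicate 3 and -0.36 without water replicate 2, where the rule no longer found it. It too was called for IbHypSysIV and not for IbPep1 against water. The IbHypSysIV shift was 4.58 with all libraries, 3.52 without water replicate 3 and 5.17 without water replicate 2. For itf05g06830 the IbPep1 shift of -1.20 was -1.85 without water replicate 3 and -0.79 and -0.82 without replicates 2 and 4, and the rule found it each time.

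The 2 members with the largest IbPep1 shifts were itf12g09490 and itf11g07420. The level of itf12g09490 was 19.9, 8.55, 16.6 and 18.7 CPM in water. It was 25.5, 25.9, 29.1 and 24.4 CPM with IbHypSysIV and 2.26, 1.71, 5.23 and 1.76 CPM with IbPep1. The 3 groups did not overlap, and IbPep1 replicate 3 was the highest library of its group. Its mean levels were 15.9 ± 5.11, 26.2 ± 2.01 and 2.74 ± 1.68 CPM (SD, n = 4), and its fitted log2 fold changes against water were 0.75 (SE 0.31) with IbHypSysIV and -2.57 (SE 0.33) with IbPep1. It was called lower with IbPep1 and not called higher with IbHypSysIV.

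For itf11g07420 the levels in water were 10.9, 7.71, 16.6 and 13.5 CPM. With IbHypSysIV they were 20.5, 18.8, 28.0 and 24.7 CPM, and with IbPep1 2.36, 0.806, 4.19 and 1.80 CPM. Here too the groups did not overlap. The gene stood at 12.2 ± 3.79 CPM in water, 23.0 ± 4.16 CPM with IbHypSysIV and 2.29 ± 1.42 CPM with IbPep1 (SD, n = 4). Its fitted log2 fold changes were 0.95 (SE 0.33) and -2.44 (SE 0.36), and it was called for IbPep1 alone, so that none of the 4 named members was called against water with both peptides in the fit of all 12 libraries. Without water replicate 3, and without the 3 least alike libraries, itf05g06830 and itf05g06850 were called with both. Both itf12g09490 and itf11g07420, like itf05g06830, were found again by the rule whichever single library was left out and without the 3 least alike libraries.

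**Figure D3:**
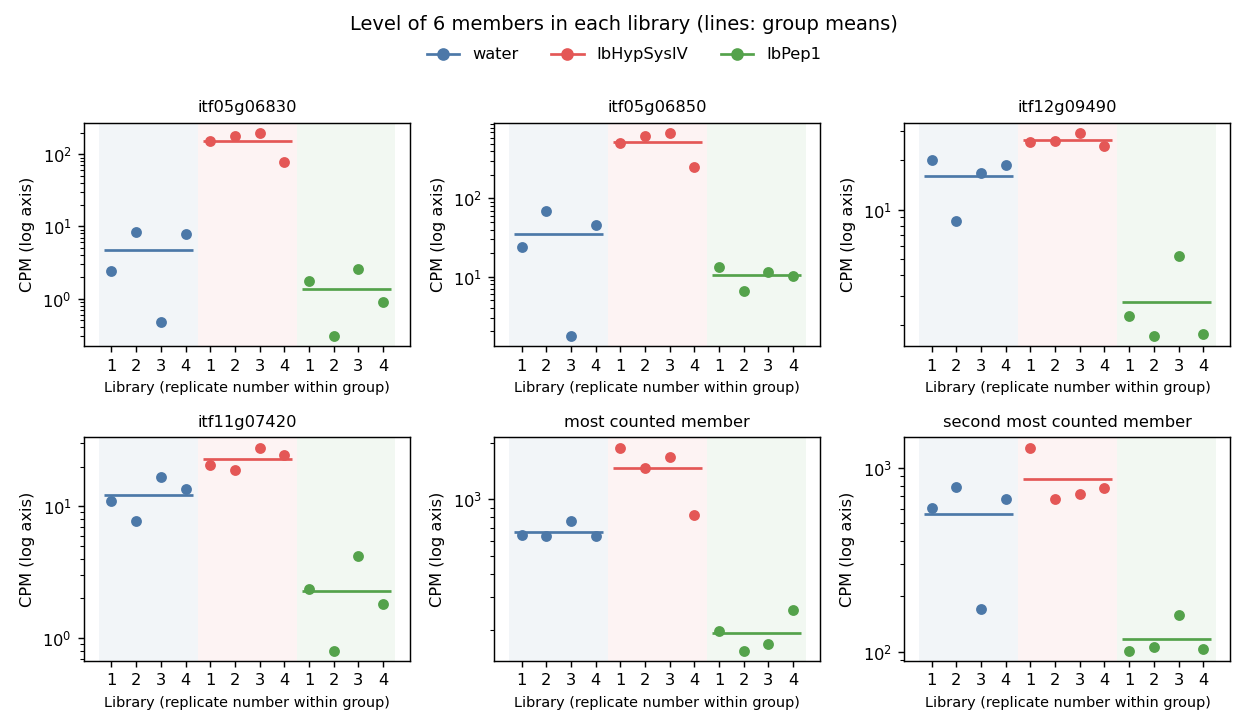
CPM on a log axis of the 4 named members and of the 2 members with the most counts, by library; points are libraries and lines are group means (n = 4). In itf12g09490, itf11g07420 and the most counted member the 3 groups do not overlap, while water replicate 3 lies at 1.74 CPM in itf05g06850 and at 171 CPM in the second most counted member, far below the other water libraries.

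Several members without a printed identifier show how varied the pattern was. The third largest IbHypSysIV shift, which was also the strongest 2-way change, belonged to a gene at 3.85, 8.20, 3.78 and 8.02 CPM in water. It stood at 45.2, 32.0, 38.8 and 44.2 CPM with IbHypSysIV and at 1.59, 0.806, 4.97 and 1.19 CPM with IbPep1. Its shifts were 2.72 and -1.44 log2 units, and IbPep1 replicate 3 lay above water replicates 1 and 3. The most counted member stood at 644, 638, 762 and 636 CPM in water, which is a narrow range beside the other groups. With IbHypSysIV it reached 1884, 1465, 1685 and 827 CPM, and with IbPep1 198, 156, 169 and 256 CPM. Its groups did not overlap, although IbHypSysIV replicate 4 lay close above water replicate 3.

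In the second most counted member the water libraries stood at 602, 790, 171 and 679 CPM. They were 1292, 675, 722 and 779 CPM with IbHypSysIV and 102, 105.6, 159 and 103 CPM with IbPep1. Water and IbHypSysIV overlapped here, and water replicate 3 lay just above the highest IbPep1 library. The member with the smallest spread within groups, an SD of 0.162 log2 units, stood at 6.03, 5.78, 5.30 and 6.69 CPM in water, 8.68, 10.3, 11.2 and 10.1 CPM with IbHypSysIV and 4.43, 3.83, 4.02 and 3.04 CPM with IbPep1. It shows that a complete separation can go with shifts as small as 0.71 and -0.58.

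One member ran against its own rule in the fit. It stood at 1.17, 9.58, 0.0870 and 2.84 CPM in water, at 3.67, 3.29, 2.43 and 2.83 CPM with IbHypSysIV and at 0.626, 0.604, 0.389 and 0.854 CPM with IbPep1. Its mean of log2 values was 0.56 higher with IbHypSysIV than in water, but its mean CPM was lower, 3.05 against 3.42, and the fitted log2 fold change was -0.16. The other 133 members had a fitted value above 0 for IbHypSysIV against water, and all 134 had one below 0 for IbPep1 against water. The fitted medians were 0.80 and -0.92, against 0.008 and 0.002 over the 23193 genes tested.

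Separation from water was less complete than separation between the peptides, which the rule required. In 72 of 134 members every IbHypSysIV library lay above every water library, beside 5.08% of the 20558 genes. In 47 members every IbPep1 library lay below every water library, beside 9.81% of the genes. In 29 members the order IbHypSysIV, water, IbPep1 held without any overlap, beside 0.311% of the genes, and in 44 neither comparison with water was free of overlap. The condition that every IbHypSysIV library lie above every IbPep1 library was met by 11.3% of the genes. Since the rule used these comparisons, nothing is read from the differences to the background. Leaving out water replicate 3 raised the 29 to 51 members, beside 0.686% of the genes, and leaving out water replicate 1, 2 or 4 gave 31, 33 and 33. The shares of all genes were not counted without replicate 1, 2 or 4, nor for the 44, so nothing is read from these counts.

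Calls were made in a fit of all 23193 genes that passed the filter on low counts, with edgeR's quasi-likelihood test and a Benjamini-Hochberg adjusted p under 0.05; all 134 members passed that filter. For IbHypSysIV against water 38 members were called higher, beside 1.22% of the genes tested. For IbPep1 against water 57 were called lower, beside 6.01%. Between the peptides 128 were called higher with IbHypSysIV, beside 9.14%. These comparisons chose the members, so the counts support nothing. Both calls against water were made in 23 members, beside 0.108% of the genes, and these were 23 of the 25 genes with both calls. A further 15 members were called for IbHypSysIV alone and 34 for IbPep1 alone, and 62 for neither, of which 56 were called between the peptides. The shares of all genes tested were not counted for this division, so nothing is read from it. A call for 1 peptide alone does not show that the other had no effect.

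The counts of calls against water changed with single libraries. Without water replicates 1, 2 and 4 the 38 members called for IbHypSysIV became 5, 14 and 11, and without IbHypSysIV replicate 3 they became 4. Over all genes this count ran from 20 to 565 when single libraries were left out. The 57 members called for IbPep1 became 32, 26, 90 and 24 without water replicates 1 to 4, and 31 and 27 without IbPep1 replicates 1 and 2. Over all genes the 1393 called for IbPep1 became 470, 296, 3049, 297, 463 and 380 in these settings. The 23 with both calls became 2, 6 and 4 without water replicates 1, 2 and 4, 12 with IbHypSysIV replicate 1 left out, 1 with its replicate 3 left out, and 12, 11 and 15 with IbPep1 replicate 1, 2 or 4 left out. The 128 called between the peptides, where the rule bars overlap, stayed between 119 and 132, while over all genes 2119 became 1003 to 2819. Without the 3 least alike libraries, all at once, the counts were 55 for IbHypSysIV, 111 for IbPep1, 132 between the peptides and 49 with both calls against water. Over all genes they were 634 for IbHypSysIV, 3307 for IbPep1 and 2924 between the peptides. Genes with both calls were not counted over all genes in these settings.

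Which genes were members, and how many, also depended on single libraries. Leaving out 1 library at a time gave most genes, 195, without IbPep1 replicate 3, and fewest without water replicate 3, where 88 members and 21 other genes were found. Without IbHypSysIV replicates 1 and 4 the rule found 171 and 167. Of the 134, 46 were found in all 12 repeats, 30 were lost in 1 and 58 in at least 2. The 46 had median shifts of 0.99 and -1.14 and included all 15 members with both shifts of at least 1. Leaving out water replicate 3 lost the most members, 46. Without the 3 least alike libraries the rule found 158 genes, 95 of them members. Altogether 17 members were found in all 12 repeats, had no overlap between any groups and were called against water with both peptides. These conditions rest on the libraries that chose the members. The share of all genes that meets them was not counted, so nothing is read from the 17.

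In every group the median spread between libraries was larger for the members than over all genes with a mean water level of at least 1 CPM, and the same was true of the genes found with the peptides exchanged. The rule used the means of the water libraries and not the order of the libraries within the group. The median SD of log2(CPM + 0.5) within water was 0.423 for the members and 0.256 for the 20558 genes, and without replicate 3 the values were 0.219 and 0.162. For the genes with the peptides exchanged it was 0.483, and 0.258 without replicate 3. Within IbHypSysIV the medians were 0.342 for the members, 0.489 for the exchanged set and 0.277 for all, and within IbPep1 they were 0.384, 0.284 and 0.240. Water replicate 3 was the lowest water library in 68 members (50.7%, beside 31.7% of the 20558 genes) and the highest in 39 (29.1%, beside 45.5%). Water replicate 4 was the highest in 47 members (35.1%, beside 22.3%) and the lowest in 7 (5.22%, beside 21.5%). In 57 members replicate 3 reached down to the highest IbPep1 library or below it, and in 21 it reached up to the lowest IbHypSysIV library or above it. For the other water libraries these counts were 20 to 39 and 15 to 35. How many of all genes reach so far was not counted, so nothing is read from these counts. No test was run on the members' shares above, because the members are not independent of one another and were chosen on these libraries.

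Water replicate 3 lay below the other water libraries in 68 members, above them in 39 and inside their range in 27. The shares were 50.7%, 29.1% and 20.1%. Over all genes with a mean water level of at least 1 CPM they were 31.7%, 45.5% and 22.8%. A position outside the range was found in 79.9% of the members and 77.2% of these genes, so it was not particular to the members. In the 68 members, water replicate 3 lay below the other water libraries by a median of 0.85 log2 units. It was at or below the highest IbPep1 library in 49 of them. Without it, their median shifts moved from 0.75 to 0.51 for IbHypSysIV and from -0.79 to -1.03 for IbPep1. In the 39 where it lay above the others, the median distance was 0.71, and the shifts without it moved from 0.90 to 1.08 and from -0.95 to -0.72. The remaining 27 had it inside the range of the others and shifts of 0.70 and -0.70, which were 0.70 and -0.75 without it. Leaving out a low library raises the water mean and leaving out a high one lowers it, so the direction of these moves follows from the division itself and only their size is a measurement. Without water replicate 3, 132 of 134 members kept an IbHypSysIV mean above water and all 134 an IbPep1 mean below water. No share of all genes was counted beside the 49 that reached the highest IbPep1 library, so nothing is read from that count.

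The positions of the other least alike libraries are given beside it. IbPep1 replicate 3 was the highest of its group in 27 of the 39 members with water replicate 3 above, and in 32 of the 68 with it below, beside 48.8% of the 20558 genes. IbHypSysIV replicate 4 was the highest of its group in 12 of the 39 and in 9 of the 68, beside 36.3% of the genes, and the lowest in 9 and 28, beside 23.2%. The shares of all genes here were taken whatever the position of water replicate 3. Shares among all genes with water replicate 3 above or below were not counted, so nothing is read from the differences. Across the 134 members, the deviation of water replicate 3 from its group correlated at r = 0.404 with that of IbHypSysIV replicate 4 and at r = 0.352 with that of IbPep1 replicate 3, beside 0.431 and 0.270 across the 20558 genes. Between the latter 2 libraries r was 0.292, beside 0.525. Other pairs of libraries reached higher values across the members. They were 0.541 for IbHypSysIV replicate 3 with IbPep1 replicate 1, beside 0.498, and 0.467 for water replicate 1 with IbPep1 replicate 2, beside 0.269. Across the 20558 genes the 0.525 of IbHypSysIV replicate 4 with IbPep1 replicate 3 was the highest value between groups. These correlations run across genes, which are not independent replicates, and the values of a library share its total count. The part of these libraries in the members' pattern was not tested.

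**Figure D4:**
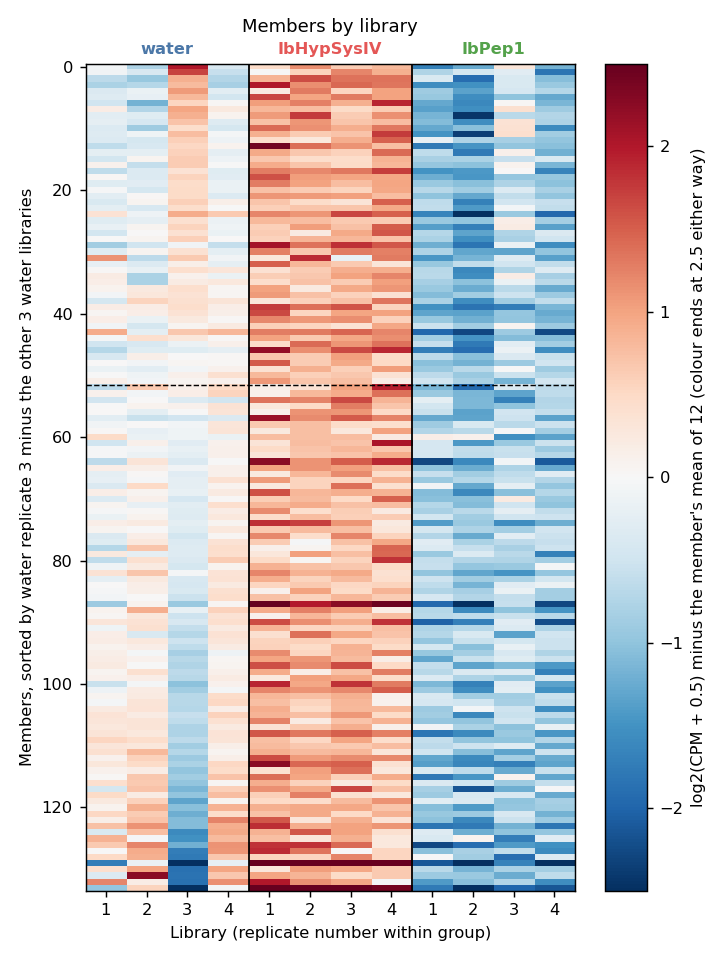
The 134 members (rows) in the 12 libraries (columns), as log2(CPM + 0.5) minus the member's mean of all 12, sorted by the difference between water replicate 3 and the mean of the other 3 water libraries; red is above and blue below the member's mean. The dashed line divides the 52 members with a difference above 0 from the rest: water replicate 3 is reddish above it and blue far below it, while the IbHypSysIV columns are mostly red and the IbPep1 columns mostly blue throughout.

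The genes found with the peptides exchanged differed from the members in this respect. Among those 143 genes water replicate 3 lay above the other water libraries in 103 (72.0%) and below them in 18 (12.6%), beside 29.1% and 50.7% of the members. Over the 20558 genes the shares were 45.5% and 31.7%. In both sets the more frequent position was the one on the IbPep1 side, which for the exchanged set was also the more frequent over all genes. The sets were chosen by opposite conditions on the same libraries, so this difference was not tested.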

How the data were processed

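Messenger RNA of sweet potato leaves was sequenced in 12 libraries, 4 each for water, IbHypSysIV and IbPep1, placed in groups by their source names. Raw read counts for each identifier, as made by the authors, were deposited as 1 table with a column per library. The submitters' processing notes list DESeq2 1.22.2, HISAT2 2.0.5 and HTSeq 0.6.1 without a role. No genome build or annotation is given in the sources used here, nor whether counting used strand, so reads of overlapping and antisense genes cannot be told apart. Per the labels' protocols, RNA was extracted with TRIzol, and a NEBNext Ultra and a SMARTER kit are both named.

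Levels and shifts of single genes were computed as CPM of the column total and log2(CPM + 0.5). Fold changes and calls came from 1 fit of the 3 groups in edgeR 4.0.16 (R 4.3.3) with filterByExpr, TMM factors (0.914 to 1.10) and the quasi-likelihood test, Benjamini-Hochberg adjusted over 23193 genes, with a threshold of 0.05. The SE of a fold change is its size divided by the square root of F. Alternatives used DESeq2 1.42.0, limma 3.58.1, other scalings and filters, and libraries left out. The rule and the edgeR fit were tried on simulated counts with planted changes and no library that stood apart. Those settings are simpler than the data, so the trial does not show how either fares on these libraries. The identifiers printed are the 2 members with the largest shift for each peptide; members described without one were picked by their place in a range. The members, lists and tests were chosen with earlier results of these data known, and the comparisons share the water or peptide libraries.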

Additional observations from a re-analysis of the deposited data

Results flagged for a closer look

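Among 21 groups of 4 values (the members' summed CPM, the 4 named members and the 2 with the most counts, in each treatment), 4 held a library set apart from the other 3 by a gap larger, relative to the group's range, than Dixon's critical value for 4 samples. Chance gives such a gap in about 1 of 20 groups of independent, normally distributed values, and these genes were chosen for their values in the same libraries. In itf12g09490, IbPep1 replicate 3 was the high one, with 5.23 CPM while the rest of its group ranged from 1.71 to 2.26 CPM. In the most counted member, water replicate 3 reached 762 CPM, with the rest of its group at 636 to 644 CPM. In the second most counted member, IbHypSysIV replicate 1 stood at 1292 CPM against 675 to 779 CPM, and IbPep1 replicate 3 at 159 CPM against 102 to 105.6 CPM.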

How the results depend on the processing

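The number of members was within 1.5 times of 134 in 21 of 24 alternatives, among them other pseudocounts, scalings and water minimums. It was 15 with a required shift of 1, 656 with a shift of 0.25, and 29 where overlap with water was also barred. Leaving out 1 library gave at most 195 members, 4 to 45 called for IbHypSysIV against water, 24 to 90 called for IbPep1 against water and 1 to 30 with both calls. For IbHypSysIV against water DESeq2 called 68 members in place of 38, and a fit of the 8 libraries compared called 18. With both calls DESeq2 gave 41 in place of 23. Without the 3 least alike libraries, an alternative chosen after seeing the data, 111 members were called for IbPep1 in place of 57, and 49 had both calls. In all of these the cause was not tested. Genes with both calls were not counted over all genes in these alternatives, so nothing is read from the members' counts of both calls. Over all genes, the 282 called for IbHypSysIV were 927 with DESeq2, 93 with the 8 libraries and 634 without the 3, the 1393 called for IbPep1 were 2374 with DESeq2 and 3307 without the 3, and leaving out 1 library gave 20 to 565, 296 to 3049 and, for 2119 between the peptides, 1003 to 2819. The 128 members called between the peptides stayed within 1.5 times in all 20 alternatives, from 90 with the replicate block to 133 with DESeq2. The rule barred overlap between the peptides, so this steadiness follows largely from the choice of members. Over all genes the same count ran from 383 with the replicate block to 2924 without the 3 least alike libraries.

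The title numbers, which are shared by 7 pairs of libraries across groups, gave correlations of deviations from -0.0763 to 0.140 and were taken to pair nothing. Water replicate 3, IbHypSysIV replicates 3 and 4 and IbPep1 replicate 4 share their title number with no other library. A fit with a block on these numbers gives each of them its own term, so they add nothing to the comparisons between groups. For IbHypSysIV the comparisons then rest on its replicates 1 and 2. The edgeR fit with a replicate block on the title numbers, which leaves 3 residual degrees of freedom and not 9, called 0 members for IbHypSysIV against water, where 68 had an unadjusted p under 0.05, and 0 members with both calls, where 53 had both at an unadjusted p under 0.05. It called 67 members for IbPep1 against water and, over all genes, 1560 for IbPep1 against water, 383 between the peptides and 0 for IbHypSysIV, where 1197 had an unadjusted p under 0.05. Genes with both at an unadjusted p under 0.05 were not counted over all genes, so nothing is read from the 53.

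Of 240 alternative fits of the 4 named members' fold changes, 229 kept direction and side of the threshold, 6 lost a call, 5 gained one and 0 reversed. The 6 lost calls were all for IbHypSysIV against water, in itf05g06830 with the replicate block (log2 4.81) and in itf05g06850 with the block (3.80), with the 8 libraries alone (3.92) and with water replicate 1 (3.77), water replicate 4 (4.06) or IbHypSysIV replicate 3 (3.75) left out. The 5 gained calls were all for IbPep1 against water. In itf05g06830 they came without water replicate 3 (-2.21) and without the 3 least alike libraries (-2.64). In itf05g06850 they came in the same settings (-2.19 and -2.20) and with the block (-2.09). At least 3 counts in every library were found in 133 members, which is a low floor. The rule found 113 genes with a pseudocount of 1 and 158 with a pseudocount of 0.1. The part of depth in the members' pattern was not tested.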

Other observations

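The identifiers of 14 of the 134 members (10.4%) lay within 50 units of another member with the same prefix, which made 7 pairs. Among the 20424 other genes with a mean water level of at least 1 CPM, 3.46% lay as near to a member. Within 10 units, the smallest step of the numbering, the shares were 4.48% (6 members, 3 pairs) and 0.769%. The table does not say whether the numbering follows position in a genome, and near-identical copies that share reads could not be recognised. In 4 of the 7 pairs water replicate 3 had the same position relative to the other water libraries in both genes, among them itf05g06830 and itf05g06850. By prefix, chosen here for being the highest and the lowest, itf03 held 20 members of 1624 genes (1.23%) and itf06 held 2 of 1270 (0.157%), beside 0.652% over all prefixes. No test was run on these shares.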
